A study of Mus musculus with 40 samples.

Results

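The genes described here encode the ADAM, ADAMTS and ADAMTSL proteins. They were taken from the count tables as the protein-coding rows whose gene name begins with Adam, and a gene counted as a member in a tissue where its mean was at least 0.2 CPM (counts per 1000000 of the library total). In aortas, 32 of 58 matching rows were members, and in kidneys 31 of 59. Together 33 genes were members, 30 of them in both tissues, out of 55335 genes in the aortic table and 55382 in the renal table. Adam5 and Adamts17 were members in aortas only, and Adamts13 in kidneys only. Family and expression level chose these genes, and no difference between diets or genotypes was used to choose them. The level was judged in each tissue, so Adam5, Adamts17 and Adamts13 entered through the tissue with the higher level.

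RNA came from aortas and kidneys of mice with a floxed EGFR (EGFR flox/flox on C57BL/6) crossed with B6.Cg-Tg(Tek-cre)1Ywa/J. In this line the Tie2 promoter drives Cre, which is active in endothelium and also in haematopoietic cells. EC-EGFR-WT animals (WT) carried Cre without loxP sites, and EC-EGFR-KO animals (KO) carried both. Both genotypes received a standard diet (SFD, named SD in the labels, 10% of energy from fat) or a high fat diet (HFD, 60%), begun at 6 weeks of age and kept up for 18 weeks. Each of the 8 groups of tissue, genotype and diet held 5 libraries, and sex was not stated.

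ADAM proteins are membrane-anchored metalloproteases that cut the extracellular parts of other membrane proteins, a step called shedding. Shedding releases ligands of the EGFR itself, and ADAM17 and ADAM10 are the best known of these sheddases. Some ADAM proteins, such as ADAM11, ADAM22 and ADAM23, lack the zinc-binding residues of a protease and act as adhesion or receptor proteins, mostly known from the nervous system. ADAMTS proteins are secreted and work in the matrix, where they cut proteoglycans such as versican and aggrecan, trim procollagens or shape fibrillin microfibrils, while ADAMTSL proteins share their domains without the protease.

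Total counts ranged from 17520161 to 36452741 in aortas and from 19643033 to 48833447 in kidneys. Counts were scaled to the normalised library size of the tissue, in FPM (fragments per 1000000), and 15122 genes in aortas and 15943 in kidneys were put to the quasi-likelihood test of edgeR. A gene was called with a Benjamini-Hochberg adjusted p under 0.05. In each tissue a pair of libraries with different genotype labels differed by less than sampling noise. These were R-1 (WT SFD) and R-12 (KO SFD) in aortas and a12 (WT HFD) and a1 (KO HFD) in kidneys, each the deepest of its tissue, and they were kept, so the groups holding them are not fully separate. Kidneys a8, a9 and a17, all under SFD, stood apart by their immediate-early genes, and aortas R-11 and R-16 by their lymphoid genes. Smooth muscle markers summed to 26208 to 41831 FPM in aortas and to 149 to 270 FPM in kidneys, while proximal tubule markers summed to 0.619 to 1.53 FPM in aortas and to 8594 to 11434 FPM in kidneys. Egfr, which other cells of both tissues also express, was not called in KO against WT, with log2 fold changes of 0.15 under SFD and 0.13 under HFD in aortas and of -0.09 and 0.06 in kidneys.

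Not every family member could be read. Adam10, Adamts7, Adamts8, Adamts15 and Adamts18 stood at 0 in all 40 libraries, together with every gene on chromosomes 9, MT, X and Y and on chromosome 8 beyond the last counted gene start at 97876154, so these 0 values say nothing about expression. The remaining rows under 0.2 CPM were mainly ADAM genes known from testis, such as Adam2, Adam3 and Adam18, and also Adam28, Adamdec1, Adamts19 and Adamts20. The expression filter of the test passed 31 of the 32 aortic members, leaving out Adamts16. It passed 29 of the 31 renal members, leaving out Adamts3 and Adamts13, the protease of von Willebrand factor. Adamts13 had 0 to 0.962 FPM in kidneys, with a median of 0.156 FPM.

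In aortas, the members summed to 1530 to 2396 FPM per library, and in kidneys to 316 to 502 FPM. ADAMTS genes gave the largest family sum in aortas, with a median of 978 FPM, followed by ADAM genes with 630 FPM and ADAMTSL genes with 302 FPM. In kidneys the order changed, with medians of 245 FPM for ADAM, 121 FPM for ADAMTS and 23.8 FPM for ADAMTSL genes. These family sums are not scaled by gene length and leave out the genes that could not be read. Levels of different genes were compared per kilobase of annotated exons. On that scale the ADAM and ADAMTS sums changed order between aortas. They were 115 and 87.8 FPM per kb in R-2, but 121.5 and 209 FPM per kb in R-19. The highest aortic level was that of Adamts1, which cuts versican and aggrecan, with 47.6 ± 25.9 FPM per kb (SD, n = 20). Adam9, a membrane sheddase, followed with 34.6 ± 8.14 FPM per kb, and Adamts10, which binds fibrillin, with 30.9 FPM per kb. Adamtsl5 and Adam33 came next, with 28.4 and 27.7 FPM per kb. The spreads of these genes overlap, so their order is not fixed.

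In kidneys, Adam9 stood first with 28.5 ± 4.04 FPM per kb (SD, n = 20). Adamts1 and Adam15, a membrane ADAM of endothelium and other cells, followed with 9.28 and 9.06 FPM per kb and did not differ beyond their spread. Adam17, the TNF-alpha converting enzyme, had 4.43 FPM per kb and Adam11 had 4.36 FPM per kb. Adam15 and Adam17 were among the steadiest members, with a coefficient of variation over the 20 libraries of 11.9% and 16.2% in aortas and of 10.5% and 12.1% in kidneys. Adamts4, which like Adamts1 cuts aggrecan and versican, was the least steady in kidneys, with 156%, and had 63.1% in aortas.

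High fat diet raised Adam11 in the kidneys of both genotypes. Adam11 (ENSMUSG00000020926, GRCm38 chromosome 11, 102761439 to 102780262, plus strand) had 15.7, 13.3, 16.9, 22.2 and 17.2 FPM in WT kidneys under SFD. Under HFD, WT kidneys had 34.3, 25.2, 42.4, 39.9 and 38.4 FPM. All WT HFD kidneys lay above all WT SFD kidneys, and the lowest of them was a12, of the near-identical pair. HFD raised it by 1.08 on the log2 scale (SE 0.18, 95% interval 0.70 to 1.45, n = 5 against 5, edgeR adjusted p = 6.87e-04). In KO kidneys, SFD libraries had 10.1, 14.4, 17.1, 9.33 and 14.6 FPM and HFD libraries had 24.9, 30.6, 36.0, 30.2 and 41.0 FPM. These groups did not overlap either, and the lowest HFD value was again that of the near-identical library, a1. The log2 fold change in KO was 1.31 (SE 0.18, 95% interval 0.93 to 1.69, edgeR adjusted p = 1.02e-04).

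Adam11 was the only one of the 29 tested members called for diet in WT, where 6.71% of all 15943 genes were called, and in KO, where the share was 6.34%. With 29 members, a count of 1 is near these shares and is not read as a difference from them. Averaged over the genotypes, Adam11 rose by 1.19 on the log2 scale (SE 0.13, edgeR adjusted p = 1.48e-06). The diet effect in KO minus that in WT was 0.23 (SE 0.25, 95% interval -0.29 to 0.76, adjusted p = 1.00), so the effects were not shown to differ, although the interval is wide. Without both near-identical libraries these effects were 1.18 (WT) and 1.39 (KO), and without a8, a9 and a17 they were 1.00 and 1.32.

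**Figure D1:**
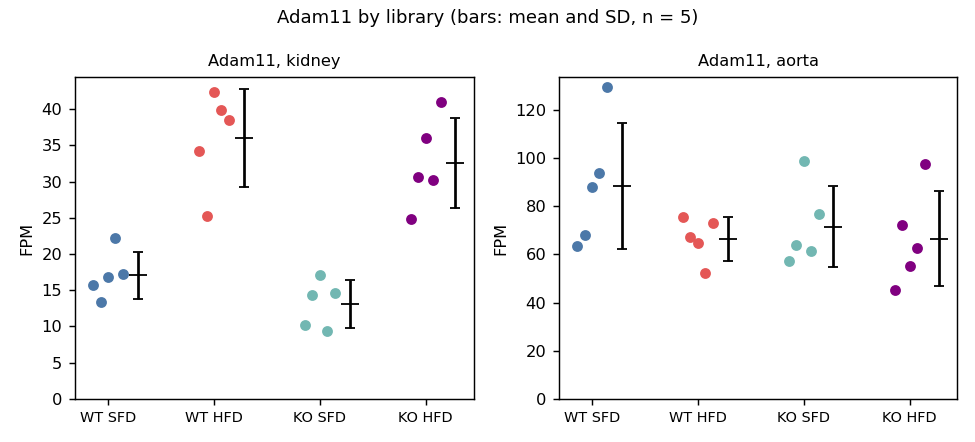
Adam11 in each library of kidney and aorta (FPM, linear axis from 0) by genotype and diet; points are libraries, and the black mark with its bar is the mean and SD (n = 5). In kidneys, HFD libraries lay between 24.9 and 42.4 FPM and SFD libraries between 9.33 and 22.2 FPM, while in aortas the diets overlapped.

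In aortas, Adam11 went the other way in its mean and was not called. WT aortas had 63.5, 67.9, 88.0, 93.9 and 129 FPM under SFD and 75.4, 67.2, 64.6, 52.4 and 72.9 FPM under HFD. KO aortas had 57.1, 63.7, 98.7, 61.5 and 76.8 FPM under SFD and 45.2, 72.3, 55.3, 62.8 and 97.4 FPM under HFD. The diets overlapped in both genotypes, and the log2 fold change averaged over them was -0.26 (SE 0.15, edgeR adjusted p = 0.848). The difference between the tissues was tested in a joint fit of all 40 libraries over 17514 genes. The HFD effect on Adam11 in kidney minus that in aorta was 1.44 (SE 0.20, 95% interval 1.04 to 1.85, edgeR adjusted p = 8.18e-06), and Adam11 was the only one of 32 tested members called there, where 6.5% of all genes were called. Adamts1 had the next smallest p, with a difference of -1.12 (SE 0.41, edgeR adjusted p = 0.0978), and was called without R-16 alone (adjusted p = 0.0310). In the fit of kidneys alone, its averaged diet effect was -0.52, but -0.01 without a8, a9 and a17. The joint fit was not run without these kidneys together. Tissue and count table run together in this comparison and cannot be told apart.

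Adamts16, a secreted protease known from kidney and gonads, was the other member called in kidneys, and only in the average over genotypes, where 16.4% of all genes were called and 2 of 29 members. It lies on chromosome 13, 70727802 to 70841811. WT kidneys had 1.90, 4.08, 2.23, 2.28 and 1.94 FPM under SFD and 6.02, 3.20, 5.16, 8.47 and 3.28 FPM under HFD. The WT groups overlapped only through a17, with 4.08 FPM under SFD. KO kidneys had 4.91, 1.98, 4.0, 2.1 and 4.22 FPM under SFD and 3.18, 6.00, 3.72, 7.23 and 2.80 FPM under HFD, so the diets overlapped widely. The averaged log2 fold change was 0.74 (SE 0.24, 95% interval 0.25 to 1.24, edgeR adjusted p = 0.0369), made up of 1.07 in WT (adjusted p = 0.0628) and 0.41 in KO (adjusted p = 0.541). The call was lost without the expression filter (adjusted p = 0.0554) and without any of 11 single libraries, with adjusted p-values up to 0.0768.

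Among uncalled members, Adam22, the receptor for LGI proteins at synapses, had the next smallest p in WT kidneys. It had 4.63, 7.21, 3.54, 5.67 and 5.50 FPM under SFD and 9.35, 5.50, 8.23, 7.18 and 7.87 FPM under HFD, a log2 fold change of 0.52 (SE 0.16, edgeR adjusted p = 0.0577). KO kidneys had 5.93, 5.28, 6.28, 6.85 and 6.60 FPM under SFD and 5.54, 5.74, 6.13, 6.18 and 4.98 FPM under HFD, a log2 fold change of -0.12. The interaction of diet and genotype was -0.63 for Adam22 (SE 0.23, unadjusted p = 0.0114, adjusted p = 1.00). Adam22 and Adamts16 were called in WT with the DESeq2 Wald test, without both near-identical libraries, without a8, a9 and a17, and without a17 or a12 alone, each giving 3 called members in place of 1. Adamts2, which removes the N-propeptide of fibrillar procollagens, had a log2 fold change of 0.63 in WT (SE 0.24, adjusted p = 0.138) and of 0.23 in KO. None of the 7 membrane ADAM genes with protease function was called. Their averaged log2 fold changes were 0.08 (95% interval -0.08 to 0.24) for Adam17, -0.02 (-0.17 to 0.12) for Adam15, -0.12 (-0.29 to 0.05) for Adam9, 0.01 (-0.46 to 0.47) for Adam19 and -0.03 (-0.55 to 0.48) for Adam33. Wider intervals were those of Adam12, with 0.23 (-0.28 to 0.74), and of Adam8, with 0.45 (-0.15 to 1.06) at group means of 0.950 to 1.51 FPM.

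Adamts5 and Adamts9, secreted proteases that cut aggrecan and versican, were not called either. Adamts5 ran from 8.79 to 28.3 FPM in WT and from 14.8 to 26.8 FPM in KO under SFD, and from 20.5 to 25.9 FPM in WT and from 18.9 to 28.0 FPM in KO under HFD. These ranges overlapped, with an averaged log2 fold change of 0.26 (SE 0.16, 95% interval -0.06 to 0.59, edgeR adjusted p = 0.275). Adamts9 ran from 13 to 18.4 FPM in WT and from 10.3 to 17.2 FPM in KO under SFD, and from 14.2 to 18.2 FPM in WT and from 10.7 to 20.8 FPM in KO under HFD, with 0.01 (SE 0.11, 95% interval -0.22 to 0.23). In aortas the averaged diet effects were -0.09 (SE 0.11) for Adamts5 and -0.08 (SE 0.16) for Adamts9, and the averaged genotype effects lay between -0.16 and 0.08 for both genes in both tissues.

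**Figure D2:**
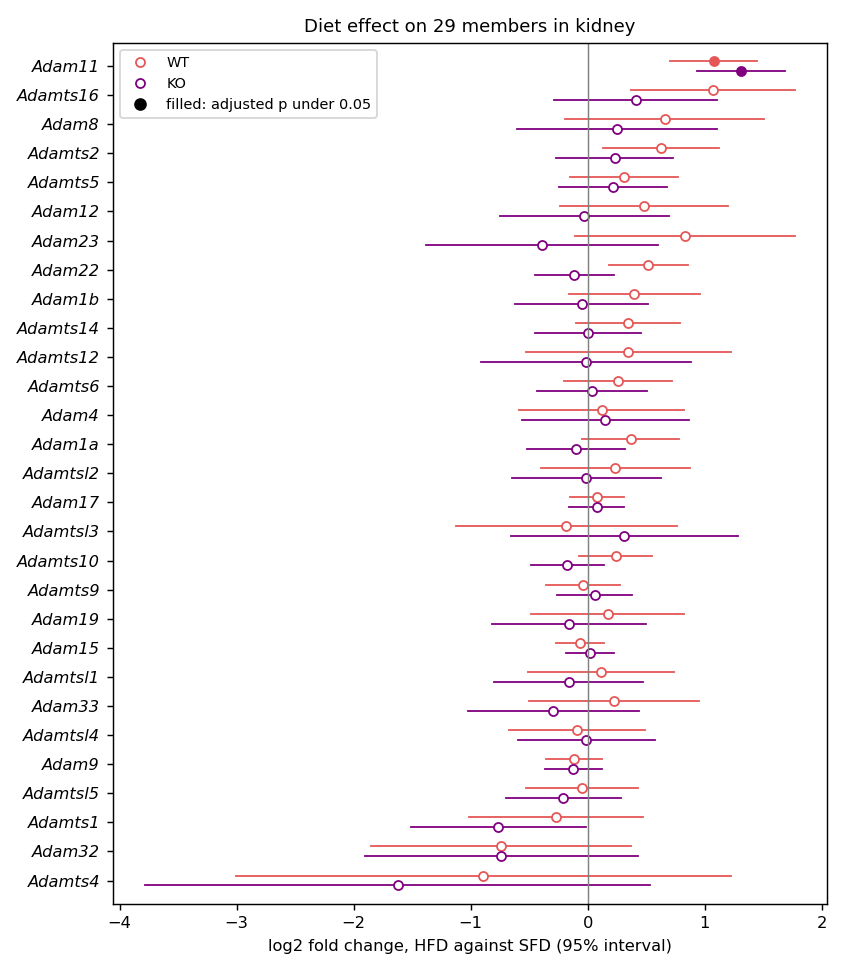
Log2 fold change of HFD against SFD in kidneys for the 29 tested members (horizontal axis, points with 95% intervals), in WT and KO, ordered by their average; filled points have an adjusted p under 0.05. Adam11 is the only member with filled points, and most WT points lie to the right of 0 while KO points lie on both sides.

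By role, the renal members did not move together. In WT, 20 of 29 members had a log2 fold change above 0, with a median of 0.24 beside -2.67e-04 over all genes tested. In KO, 12 of 29 were above 0, with a median of -0.02 beside -5.96e-04. The WT SFD kidneys a16 and a18 had the lowest ADAMTS sums of the 20 kidneys, 85.3 and 81.6 FPM, and their part in the WT median was not tested. All 3 ADAM genes without protease function, all 3 tested procollagen and COMP-cleaving genes (Adamts2, Adamts14 and Adamts12) and both fibrillin-associated genes (Adamts6 and Adamts10) had an averaged value above 0, but only Adam11 among them was called. Of the 7 membrane ADAM genes with protease function 4 were above 0, of the 5 ADAMTSL genes 2, and none of these was called.

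Adamts1 and Adamts4 were highest in the same pair of kidney libraries. Adamts1 had 32.3, 103, 32.2, 48.0 and 45.1 FPM in WT under SFD and 35.0, 43.1, 54.8, 139 and 48.0 FPM in KO under SFD. Under HFD it had 38.8, 32.1, 43.3, 48.9 and 52.8 FPM in WT and 32.2, 33.3, 51.0, 36.8 and 35.2 FPM in KO. The values of 103 and 139 FPM belonged to a17 and a9, and the other 18 kidneys lay between 32.1 and 54.8 FPM. Adamts4 had 0.133, 8.25, 0.219, 1.03 and 1.41 FPM in WT under SFD and 0.0507, 0.826, 1.54, 11.7 and 0.942 FPM in KO under SFD, with 8.25 and 11.7 FPM again from a17 and a9. Under HFD it stayed between 0.442 and 1.64 FPM in both genotypes. Adamtsl2, which binds the latent TGF-beta binding protein LTBP1, was highest in a17 with 38.1 FPM against 11.7 to 15.3 FPM in the other WT SFD kidneys, but in KO its value of 28.7 FPM in a9 was close to that of an HFD library, 29.9 FPM.

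Neither gene was called for diet in kidneys. The averaged log2 fold change of Adamts1 was -0.52 (SE 0.25, edgeR adjusted p = 0.174), and without a8, a9 and a17 it was -0.01 (adjusted p = 0.977). That of Adamts4 was -1.26 (SE 0.72, adjusted p = 0.255), and without these kidneys it was 0.72 (adjusted p = 0.377). A list of 11 immediate-early genes, which respond to stimuli or handling within minutes, had a score of 3.44 in a17, 3.68 in a9 and 3.22 in a8, and of -1.24 to 0.10 in the other kidneys (mean log2 difference from the average kidney). The list summed to 98.8 to 1922 FPM in WT SFD, 102 to 2149 FPM in KO SFD, 135 to 213 FPM in WT HFD and 103 to 184 FPM in KO HFD, and 7 of its 11 genes were called lower with HFD in the average. The kidney a8 had this high score with 54.8 FPM of Adamts1, the highest of the 18 kidneys other than a9 and a17, and 1.54 FPM of Adamts4. The part of these genes in the values of Adamts1 and Adamts4 was not tested.

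Adamts1 varied as much in aortas. WT aortas had 175, 92.8, 142, 283 and 292 FPM under SFD and 92.9, 305, 133, 436 and 309 FPM under HFD. KO aortas had 179, 175, 204, 206 and 250 FPM under SFD and 82.2, 329, 337, 652 and 377 FPM under HFD. The highest value, 652 FPM, came from R-19, which also had the highest immediate-early score of the aortas, 2.76. The lowest score, -2.13 in R-2, went with 92.8 FPM. The lowest Adamts1 level, 82.2 FPM, came from R-16, in KO HFD, where no score was below -0.69. The part of the immediate-early genes in these aortic values was not tested. The averaged log2 fold change with HFD was 0.59 (SE 0.31, edgeR adjusted p = 0.806). Adamts4 had 0.165 to 5.00 FPM in aortas and an averaged log2 fold change of -0.27 (SE 0.47).

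**Figure D3:**
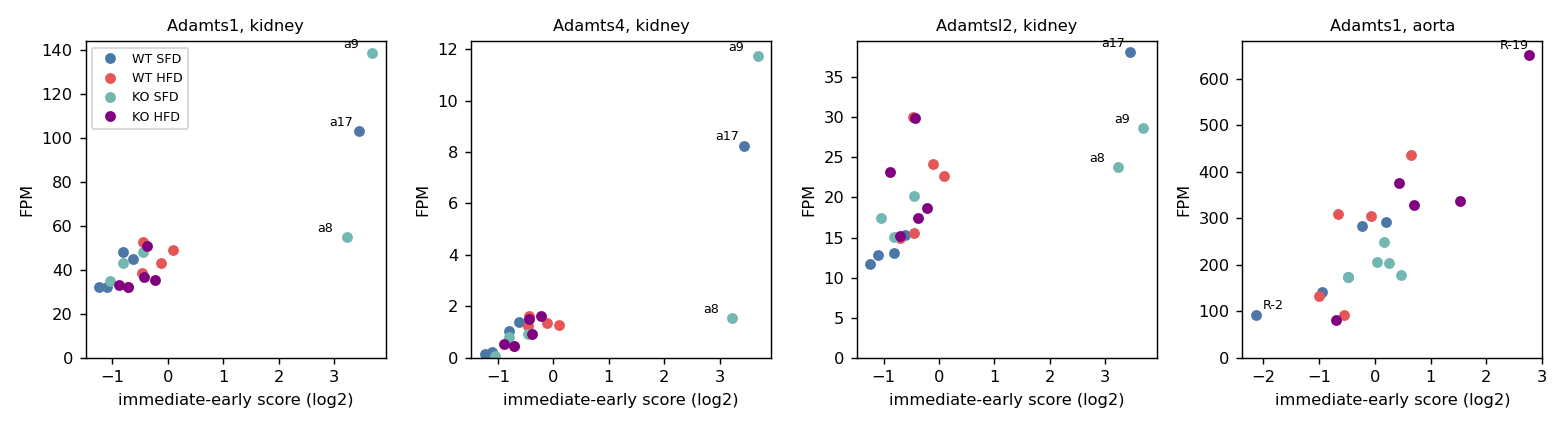
Levels of Adamts1, Adamts4 and Adamtsl2 in kidneys and of Adamts1 in aortas (FPM, vertical axes from 0) against the immediate-early score of the library (log2 scale); points are libraries, coloured by group. Kidneys a9 and a17 stand high on both axes for Adamts1 and Adamts4. Kidney a8 has a high score and lies far below them, with the highest Adamts1 level of the other 18 kidneys. In aortas R-19 stands highest on both axes, while the lowest level, that of R-16, is not at the lowest score.

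The bases before the annotated start are shown for Adamts1 and Adamtsl2, which were both higher in a17 than in any other WT kidney and have a promoter entry. They were chosen after these values were seen. The 250 bases end 1 base before the gene start and come from RefSeq (GRCm38.p6), at chr16:85803114-85803363 on the minus strand and chr2:27079129-27079378 on the plus strand. Capitals mark TATAAA, the TATA box, and TGACG, the core of cyclic AMP response elements, searched on both strands without overlap between them.
Adamts1: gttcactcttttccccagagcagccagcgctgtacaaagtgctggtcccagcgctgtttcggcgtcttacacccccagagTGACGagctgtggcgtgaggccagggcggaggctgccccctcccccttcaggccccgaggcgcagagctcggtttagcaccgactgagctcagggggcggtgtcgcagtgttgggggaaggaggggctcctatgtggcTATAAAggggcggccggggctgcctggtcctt
Adamtsl2: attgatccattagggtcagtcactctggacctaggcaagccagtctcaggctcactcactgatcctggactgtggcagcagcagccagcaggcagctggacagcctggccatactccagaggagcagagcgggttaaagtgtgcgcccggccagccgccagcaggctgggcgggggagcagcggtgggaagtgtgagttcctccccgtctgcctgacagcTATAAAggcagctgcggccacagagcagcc
Both sequences hold TATAAA, beginning 32 bases before the start in Adamts1 and 30 bases before it in Adamtsl2. Among the 20 members with an entry, no other held it in this window, and 12.4% of all 32851 promoter entries did. TGACG occurred in Adamts1, 170 bases before the start, and in Adamts3, Adamts9, Adamts12 and Adamtsl3, and in 17.8% of all entries. GGGCGG, the GC box, occurred in 12 of the 20 members, Adamts1 and Adamtsl2 among them, and in 32.7% of all entries. These matches describe the letters and were not tested for binding.

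In aortas, no member was called for diet. The call shares over all 15122 genes were 0.0132% for HFD in WT, 0% for HFD in KO and 0.0529% for the average, so few genes of any kind passed. An unadjusted p under 0.05 was reached by 2 of 31 members in WT, 1 in KO and 1 in the average, beside 2.61%, 4.56% and 6.7% of all genes, and the DESeq2 Wald test called 0 members as well. The smallest p in the average was that of Adamtsl4, which binds fibrillin microfibrils. It had 44.3, 38.7, 39.1, 45.8 and 55.0 FPM in WT under SFD and 36.5, 36.0, 33.4, 34.3 and 44.9 FPM under HFD. In KO it had 45.0, 44.9, 49.4, 51.7 and 56.7 FPM under SFD and 29.7, 44.9, 37.2, 38.9 and 40.2 FPM under HFD. The KO groups did not overlap, by a margin of 0.0718 FPM, and the lowest SFD value was that of R-12, of the near-identical pair. The averaged log2 fold change was -0.32 (SE 0.09, 95% interval -0.50 to -0.14, edgeR unadjusted p = 0.00122, adjusted p = 0.359).

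Adamts17, a secreted protease of the fibrillin-rich matrix, had the smallest p in WT aortas. It had 0.957, 1.10, 1.06, 1.14 and 0.658 FPM under SFD and 0.504, 0.440, 0.408, 0.671 and 0.761 FPM under HFD, from 7 to 34 counts per library, a log2 fold change of -0.81 (SE 0.27, adjusted p = 1.00). In KO it had 0.744, 1.01, 0.700, 0.596 and 0.893 FPM under SFD and 0.874, 0.731, 0.749, 0.747 and 1.38 FPM under HFD, and the interaction was 0.99 (SE 0.37, unadjusted p = 0.0152, adjusted p = 1.00). Over the 31 members the median averaged log2 fold change was -0.08, with 21 below 0, beside -0.001 over all genes. Markers of other cells moved with diet or with single libraries in aortas. The adipocyte list summed to 279 to 917 FPM in WT SFD, 102 to 500 FPM in WT HFD, 156 to 450 FPM in KO SFD and 143 to 263 FPM in KO HFD, with 2 of its 11 genes called lower in the average. The lymphoid list was high in R-11 and R-16, with scores up to 3.59. R-16 had 5.79 FPM of Adam8, a membrane ADAM of leukocytes, against 0.740 to 2.33 FPM in the other aortas. R-11 was not high for Adam8, as all KO SFD aortas had 1.70 to 1.99 FPM. The part of either list in the members' values was not tested.

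**Figure D4:**
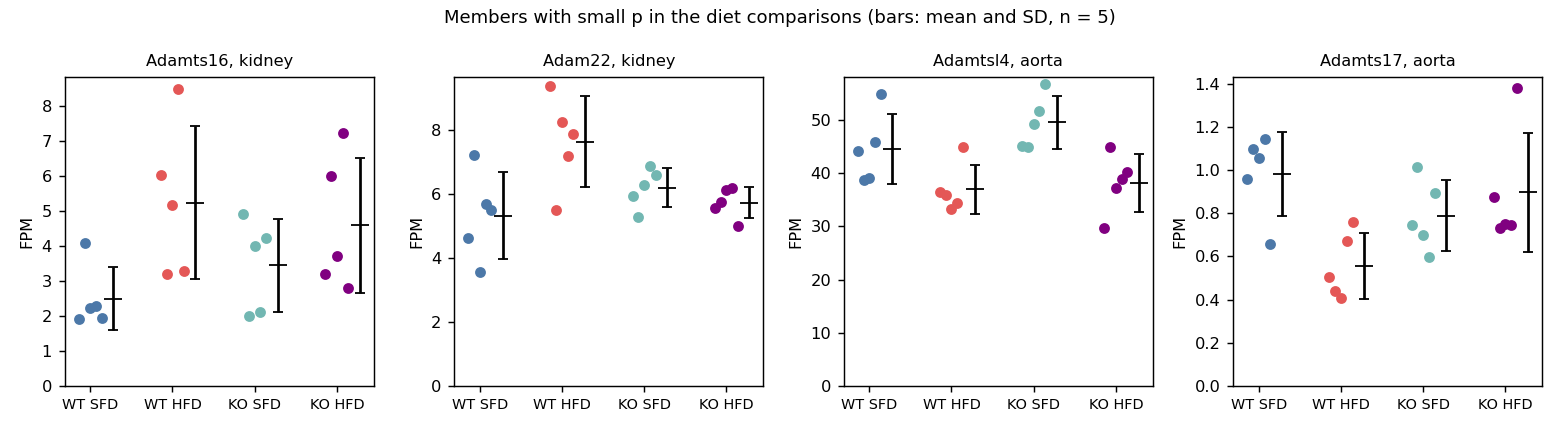
Adamts16 and Adam22 in kidneys and Adamtsl4 and Adamts17 in aortas by genotype and diet (FPM, axes from 0); points are libraries, and the black mark with its bar is the mean and SD (n = 5). HFD libraries lie mostly above SFD libraries in WT kidneys and mostly below them for Adamtsl4, and the KO groups of Adamts16, Adam22 and Adamts17 overlap.

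Loss of endothelial EGFR changed no member past the threshold. The call shares over all genes were 0% in kidneys under SFD, under HFD and in the average, 0% in aortas under either diet and 0.0198% in the aortic average, and 0% for the interaction in either tissue. In aortas, the smallest p in the average was that of Adamts6, which works on fibrillin microfibrils, with a log2 fold change of 0.29 (SE 0.11, unadjusted p = 0.0200, adjusted p = 0.494). Adam23 followed with -0.43 (SE 0.23) and Adamts10 with 0.21 (SE 0.13). Under HFD, Adamts17 had 0.68 (SE 0.27, adjusted p = 0.702) and Adamtsl2 had 0.55 (SE 0.25), and under SFD Adamts10 had 0.34 (SE 0.19). In this tissue 25 of 31 members had an averaged KO effect above 0, with a median of 0.12 beside 0.005 over all genes, and 1 had an unadjusted p under 0.05, beside 8.78% of all genes. Under SFD 0 of 31 members had such a p, beside 2.28% of all genes, and under HFD 3, beside 5.85%. For the interaction it was 1 member in aortas (Adamts17), beside 0.84% of all genes, and 1 in kidneys (Adam22), beside 1.79%.

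In kidneys, the smallest p in the genotype average were those of Adamts6 with -0.34 (SE 0.16), Adam9 with -0.18 (SE 0.08) and Adam11 with -0.26 (SE 0.13), each with an edgeR adjusted p of 0.802. Under SFD, 20 of 29 members lay above 0 in KO against WT, with a median of 0.12, and under HFD 5 of 29, with a median of -0.18. The interaction was below 0 for 22 of 29 members, with a median of -0.33 beside 0.002 over all genes and with 0 calls. Members of 1 tissue share libraries, so these counts are a description. The SFD and interaction values also rest on the WT SFD kidneys, of which a16 and a18 had the lowest ADAMTS sums of all kidneys. At an unadjusted p under 0.05, 1 member passed under SFD (Adam11, -0.38, SE 0.18), 1 under HFD (Adam22, -0.41, SE 0.16) and 3 in the average, where the shares of all 15943 genes were 2.67%, 3.42% and 4.82%. The DESeq2 Wald test called 0 members for genotype or interaction in either tissue.

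The tissues differed far more than the diets or genotypes. Of 32 members tested in the joint fit, 22 passed an adjusted p under 0.05 and a fold change over 2, against 51.8% of all 17514 genes. Of these, 19 were higher in aortas (24.3% of all genes) and 3 higher in kidneys (27.5% of all genes), and for 17 of the 22 the 20 aortas and 20 kidneys did not overlap, against 69.8% of all called genes and 42.7% of all genes tested. The members' median log2 fold change of aorta against kidney was 1.86, beside -0.02 over all genes. The largest differences were those of Adamtsl3 with 7.96 (SE 0.19), where aortas had 98.2 ± 30.1 FPM and kidneys 0.387 ± 0.203 FPM (SD, n = 20 each, scaled in the joint fit). Adam33, a membrane ADAM of smooth muscle and fibroblasts, followed with 7.29 (SE 0.20), from 139 ± 41.1 FPM in aortas and 0.897 ± 0.367 FPM in kidneys. Adamts2 had 6.19 (SE 0.15), Adamtsl5 had 5.96 (SE 0.10) and Adam5 had 4.85 (SE 0.24). Adam5 had 0.119 ± 0.103 FPM in kidneys and was at 0 in 3 of them. Adam5 and Adamts17 are among the 19, but they were members through their aortic level only. The member rule thus set their direction, and it is not read as a result.

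The members higher in kidneys were Adamts16, Adam12 and Adamtsl2. Adamts16 had 4.22 ± 2.00 FPM in kidneys and 0.244 ± 0.256 FPM in aortas, a log2 fold change of aorta against kidney of -4.06 (SE 0.32, edgeR adjusted p = 2.98e-14). Adam12, a membrane ADAM first known from muscle cell fusion, had 3.43 ± 1.17 FPM in kidneys and 0.634 ± 0.265 FPM in aortas, a log2 fold change of -2.41 (SE 0.20). Adamtsl2 had 21.9 ± 7.58 FPM in kidneys and 10.8 ± 3.23 FPM in aortas, a log2 fold change of -1.03 (SE 0.14), with overlapping libraries. Adam9 was at 133 ± 31.5 FPM in aortas and 125 ± 16.8 FPM in kidneys, a log2 fold change of 0.08 (SE 0.09, 95% interval -0.09 to 0.26). Adamts5 was higher in aortas by 2.18 (SE 0.10), with 103 ± 18.5 FPM against 22.7 ± 5.26 FPM, while Adamts9 differed by 0.48 (SE 0.10), below the required fold change, with 23.0 ± 5.87 FPM against 16.5 ± 2.66 FPM. Adam17 differed by 0.73 (SE 0.07), also below it, and Adam8, Adam22, Adamts4, Adam1a, Adam1b, Adam4 and Adam32 were not called either.

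**Figure D5:**
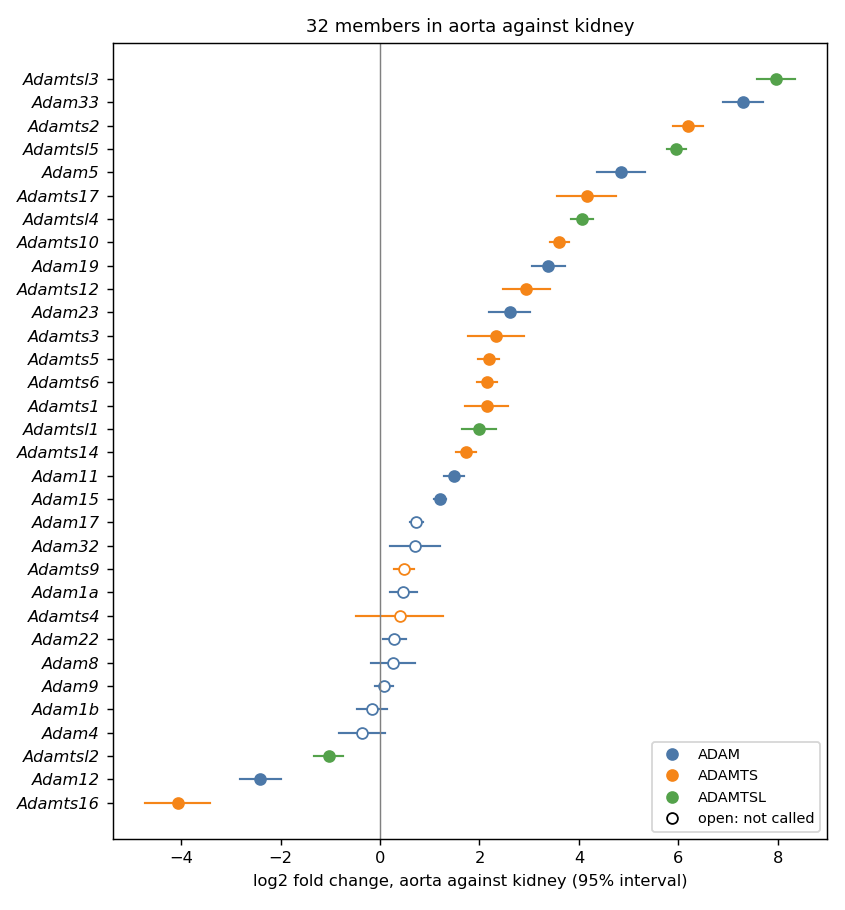
Log2 fold change of aorta against kidney for 32 members (points with 95% intervals, joint fit of 40 libraries), coloured by family; open points were not called. Values run from -4.06 for Adamts16 to 7.96 for Adamtsl3, and all called ADAMTSL genes except Adamtsl2 lie to the right of 0.

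By role, all 3 procollagen N-propeptidases (Adamts2, Adamts3 and Adamts14), both fibrillin-associated genes (Adamts6 and Adamts10) and 4 of 5 ADAMTSL genes were called higher in aortas, whereas 3 of 7 membrane ADAM genes with protease function were. The markers of smooth muscle (6 of 6 tested genes higher in aortas, median log2 fold change 6.62) and of fibroblasts and adventitia (8 of 8, median 6.19) differed in the same direction, as did 16 of 17 tested matrix substrates and partners of ADAMTS proteins (median 5.99) and 3 of 4 tested inhibitors of these proteases (median 4.43). In such bulk samples, more cells of a type and more RNA per cell cannot be told apart. The 2 tissues were held in separate tables and tissue cannot be told apart from the table.

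Genes that work with the members were also read in the HFD average of the kidneys, where 16.4% of all genes were called. Here 1 of 12 tested genes of ADAM maturation and trafficking was called higher and 3 lower, with Tspan5, a tetraspanin partner of ADAM10, at -0.51 (SE 0.06, edgeR adjusted p = 3.53e-06), Pcsk6 at -0.49 (SE 0.14), Furin, the convertase that activates ADAM precursors, at -0.13 (SE 0.04) and Tspan33 at 0.23 (SE 0.08). Of 28 tested proteins known to be shed, 2 were called higher and 5 lower. Among the smallest p here were Cdh2, which encodes N-cadherin, at 0.76 (SE 0.07), Cxcl16 at 0.58 (SE 0.09) and, with lower levels, the EGFR-family ligand genes Egf at -0.45 (SE 0.10) and Nrg1 at -0.77 (SE 0.18). Of 15 matrix substrates and partners 2 were called higher, Col3a1 at 0.71 (SE 0.23) and Fn1 at 0.49 (SE 0.16), and 0 lower. Of 10 matrix metalloproteinases 1 was called, Mmp2 at 0.67 (SE 0.18). Of the 6 listed inhibitors only 4 could be tested, and 0 of these were called, so nothing is said about the untested ones. In aortas, 0 genes of these 5 lists were called for the diet average.

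Beside the rise of Adam11 and the less stable call of Adamts16, markers of other cells also moved in kidneys with HFD. Of 8 fibroblast and adventitia genes 4 were called higher, with summed levels of 44.1 to 150 FPM in WT SFD, 112 to 169 FPM in WT HFD, 86.5 to 126 FPM in KO SFD and 92.2 to 153 FPM in KO HFD. Of 7 macrophage genes 6 were called higher and 1 lower, with 86.8 to 139, 111 to 146, 98.9 to 129 and 105 to 147 FPM in the same order. The ranges of both lists overlapped between the diets in both genotypes. Those of the cartilage list did not, with 1.90 to 3.19 FPM in WT SFD, 4.60 to 7.32 FPM in WT HFD, 2.00 to 2.65 FPM in KO SFD and 4.56 to 6.22 FPM in KO HFD. Of its 8 genes 4 could be tested and 2 were called higher, Sox9 with 2.91 (SE 0.28, edgeR adjusted p = 4.26e-07) and Chad with 1.23 (SE 0.39). Sox9 encodes a transcription factor of chondrocytes that is also known from injured tubule cells. Of the defining cartilage genes, Acan was at 0 in all 20 kidneys, and Col2a1, Col9a1 and Matn3 reached at most 0.131 FPM. The adipocyte list had 2 of 11 genes called higher and 1 lower, the proximal tubule list 2 of 8 and 1, and the distal nephron list 1 of 7 and 1. Of 7 nerve and Schwann cell genes 2 could be tested and 0 were called, and the list summed to 7.13 to 12.2, 10.5 to 13.2, 9.08 to 11.8 and 9.82 to 11.8 FPM. Podocyte markers summed to 95.3 to 309, 259 to 291, 223 to 271 and 258 to 324 FPM in the same order. Endothelial markers summed to 146 to 377, 320 to 356, 243 to 349 and 311 to 352 FPM, so both ranges were widest in WT SFD. The part of these markers in the values of Adam11 and the other members was not tested.

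Some members share exons with other annotated genes, and the strand setting of the counting was not stated, so reads there may be lost or misassigned. Adam1a shares 63.7% of its exonic bases with neighbours such as Mapkapk5 and Tmem116, Adam15 shares 20.6% and Adamts9 12.0% with antisense transcripts, while Adam17 and Adamts4 share 4.35% and 3.56%. No shared exons were found for Adam11, Adamts1, Adamts16 or Adam22.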

How the data were processed

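RNA from 20 aortas and 20 kidneys was analysed, with 5 libraries in each group of genotype and diet, grouped by the labels. The authors deposited counts per gene, whole numbers without normalization, from paired reads mapped to GRCm38/mm10 and counted with featureCounts. The processing notes name HISAT2 2.1.0 for mapping, whereas the methods name another mapper. The strand setting is not given in the sources used here. All sample columns belonged to the series.

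All 20 libraries of a tissue entered 1 model in edgeR 4.0.16 under R 4.3.3. Library sizes were normalised by TMM, genes were filtered by filterByExpr, the quasi-likelihood fit was robust, and p-values were adjusted by Benjamini-Hochberg over all genes tested. Biological coefficients of variation were 29.0% (aorta) and 22.3% (kidney). Both tables were joined for aorta against kidney, which also required a fold change over 2, and for the difference between the diet effects. The scripts were tested on simulated data. The study counts N as animals or vessels, with 5 per group, and p-values measure the spread between these libraries. Depth of 17520161 to 48833447 counts limits the precision of members near 1 FPM.

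Members and gene lists were chosen with earlier results of these data known. Named were members called for diet, genotype or interaction, the 3 with the smallest p where fewer were called, the 5 highest levels per kb in each tissue, the 5 largest tissue differences each way, and Adam10, Adam17, Adamts1, Adamts4, Adamts5, Adamts9 and Adamts13. Alternatives were DESeq2 1.42.0 size factors and Wald test, no expression filter, fits without single libraries, without the near-identical pairs or without libraries that stood apart, fits of the compared groups alone, and the study's thresholds of a fold over 1.5 and over 5 FPM.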

Additional observations from a re-analysis of the deposited data

Results flagged for a closer look

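The diet effect on Adam11 differed between the tissues, with an HFD effect in kidney minus aorta of 1.44 on the log2 scale in the joint edgeR fit (adjusted p = 8.18e-06).

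Within groups of 5 libraries, 1 library lay far from the rest in 14 of the 128 groups examined for 17 members. The cutoff used gives about 1 in 20 for independent, normally distributed values. Members share libraries and some lie near 0 FPM, so the 14 are not read as more than chance gives. Kidney a17 gave 4 of these, with 103 FPM of Adamts1 (others 32.2 to 48.0 FPM), 8.25 FPM of Adamts4 (others 0.133 to 1.41 FPM), 38.1 FPM of Adamtsl2 (others 11.7 to 15.3 FPM) and 4.08 FPM of Adamts16 (others 1.90 to 2.28 FPM). Kidney a9 gave 2, with 139 FPM of Adamts1 (others 35.0 to 54.8 FPM) and 11.7 FPM of Adamts4 (others 0.0507 to 1.54 FPM). Kidney a3 was high for Adamts1 with 51.0 FPM (others 32.2 to 36.8 FPM) and for Adam23 with 0.481 FPM (others 0.190 to 0.259 FPM).

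In aortas, R-20 was low for Adamts10 with 150 FPM (others 268 to 291 FPM) and high for Adamts17 with 1.38 FPM (others 0.731 to 0.874 FPM). Aorta R-10 was high for Adamts2 with 355 FPM (others 178 to 225 FPM) and for Adamtsl4 with 44.9 FPM (others 33.4 to 36.5 FPM). Aorta R-16, which also stood apart by lymphoid genes, was low for Adam17 with 48.8 FPM (others 67.0 to 72.8 FPM). Aorta R-4 was high for Adamts16 with 1.14 FPM (others 0.0844 to 0.176 FPM), a level of few counts.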

How the results depend on the processing

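Adam11 was called for diet in WT and KO kidneys, in their average and in kidney minus aorta under each alternative run, with log2 fold changes of 1.36 to 1.61 for kidney minus aorta. In WT kidneys 3 members in place of 1 were called with the DESeq2 Wald test, without both near-identical libraries and without a8, a9 and a17, and 1 to 3 when single libraries were left out. For the kidney average 1 member in place of 2 was called without the expression filter and 1 to 3 when single libraries were left out, and for kidney minus aorta 1 to 2. Without a8, a9 and a17 the diet effect turned to 0.13 for Adamts1 in WT kidneys, and to 0.77 in WT, 0.68 in KO and 0.72 in the average for Adamts4. When single libraries were left out, the effect in WT ran from -0.40 to 0.13 for Adamts1 and from -1.20 to 0.77 for Adamts4 (the highest without a17), and in KO from -1.94 to 0.22 for Adamts4 (the highest without a9). With the study's thresholds, the tissue calls of Adam12, Adam23, Adam5, Adamts17 and Adamts3 were lost because these genes lie under 5 FPM. Counts of called members were otherwise within 1.5 times, and stayed at 0 for genotype, interaction and the aortic diet effect in every alternative run. No paired analysis was possible because replicate names are not shared between groups. Depth limits members near 1 FPM, whose intervals span over 1 log2 unit.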
